A study of Mus musculus with 8 samples.

Results

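Fc receptors, paired receptors of the PILR and LILR families and the adaptors through which they signal were described in mouse pro-B cell lines. The set held 9 genes: the adaptors Fcer1g and Tyrobp, the Fc gamma receptors Fcgr1, Fcgr2b, Fcgr3 and Fcgr4, and the paired receptors Lilrb4a, Pilra and Pilrb1. Its members were taken as every probe outside the controls whose transcript accession maps to one of these symbols, which gave 12 probes (3 of Pilra, 2 of Lilrb4a and 1 of each other gene) of 39378 probes analysed, and 9 of 20125 symbols. The genes were chosen with their levels on these arrays known, so their differences are given as a description, with no test.

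The arrays measured total RNA of 4 groups, with 2 arrays in each. Pro-B(+) cells were a line of Ebf1-deficient progenitors from fetal liver that was established on OP9 stromal cells and could enter the T-cell lineage when Notch was stimulated. Pro-B(-) cells were a line of the same origin that was established on TD7, a thymic stromal line, and could not. Pro-B(-)/Mock cells were pro-B(-) cells that carried an empty lentiviral vector, and pro-B(-)/LMO2 cells carried the same vector with Lmo2, a transcriptional cofactor of hematopoietic progenitors. All 4 groups lacked functional Ebf1, a transcription factor needed for B-lineage commitment, and the lines were kept with SCF, Flt3L and IL-7. Each parental group was a single cell line, and the stromal cells under the transductants before RNA isolation were not given in the sources used here. The labels name the vector of the transductants, and that their parent was the pro-B(-) line comes from the study's methods.

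An ITAM is a tyrosine motif that recruits kinases of the SYK family once SRC family kinases have phosphorylated it, and an ITIM is a related motif that recruits phosphatases such as SHP-1 and SHIP-1. Most activating Fc and paired receptors have no ITAM of their own and bind an adaptor that has one, either the Fc receptor gamma chain, encoded by Fcer1g, or DAP12, encoded by Tyrobp. Paired receptors are related proteins of which one activates and the other inhibits, as PILR-beta and PILR-alpha do. These receptors are best known from macrophages, granulocytes, mast cells, dendritic cells and natural killer cells, while Fc gamma RIIB is also the Fc gamma receptor of B cells.

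The transduced gene was examined as a check of the labels: Lmo2 was 2.76-fold higher in pro-B(+) cells and 1.53-fold higher in pro-B(-)/LMO2 than in pro-B(-)/Mock cells. A difference stated for the pro-B(+) line is against the pro-B(-) line, and one stated with Lmo2 is against the empty vector. Each level below is the log2 intensity after subtraction of its array's 75th percentile, so that 0 is the array's upper quartile, and a level of one gene cannot be set against that of another, because probes differ in brightness. Mean Lmo2 levels were 2.10 in pro-B(+), 0.63 in pro-B(-), 0.35 in pro-B(-)/Mock and 0.96 in pro-B(-)/LMO2 cells. The level with the Lmo2 vector was thus below that of pro-B(+) cells. How far the probe reads the transcript of the vector was not tested. The share of probes well above background ran from 56.5% to 61.2% over the arrays, no spot was saturated, and replicate arrays correlated at r = 0.999. The labels do not say whether replicates were separate cultures, so SEs and p-values measure only the spread between these arrays, which may be technical. The 2 parental groups shared one slide and the 2 transductants another, so a difference between pro-B(-)/Mock cells and their parent, or between pro-B(-)/LMO2 and pro-B(+) cells, cannot be told apart from a difference between slides. In bulk RNA, more cells of a type and more RNA per cell cannot be told apart either.

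Both adaptor genes were well above background on all 8 arrays, and their levels varied over a narrower range than those of most of the receptors. Fcer1g, whose product pairs with Fc gamma RI, RIII and RIV, measured 5.41 and 5.40 on the pro-B(+) arrays, 5.64 and 5.66 on the pro-B(-) arrays, 5.34 and 5.33 on the pro-B(-)/Mock arrays and 5.70 and 5.72 on the pro-B(-)/LMO2 arrays. No group overlapped another, yet the highest and lowest group means were only 1.30-fold apart, the smallest range of the 9 genes. The level was lower in the pro-B(+) line (log2 difference -0.25, SE 0.041) and higher in pro-B(-)/LMO2 than in pro-B(-)/Mock cells (0.38, SE 0.041).

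Tyrobp, the adaptor of PILR-beta and of many other activating receptors, measured 5.58 and 5.53 in pro-B(+), 5.06 and 5.03 in pro-B(-), 4.62 and 4.59 in pro-B(-)/Mock and 5.84 and 5.82 in pro-B(-)/LMO2 cells. Its highest level was thus with the Lmo2 vector and its lowest with the empty vector. The log2 difference was 1.23 (SE 0.045, 2.34-fold) between the transductants and 0.51 (SE 0.045, 1.43-fold) between the parental lines.

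**Figure D1:**
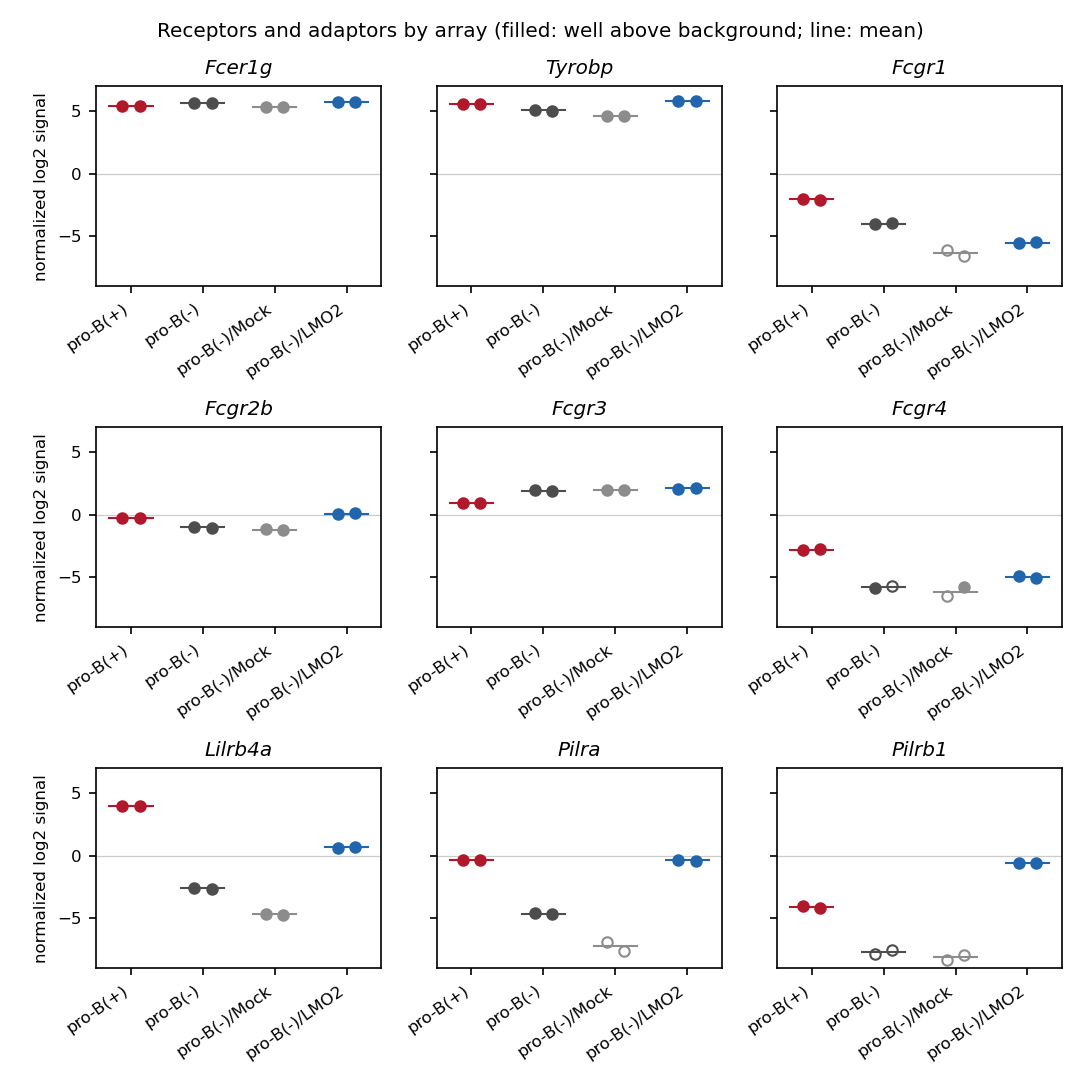
Normalized log2 signal (vertical axis) of the brightest probe of each gene on each array, by group (horizontal axis); each circle is one array, filled where the spot was well above background and open where it was not, and lines are means of 2 arrays. Fcer1g and Tyrobp stay between 4.59 and 5.84, while Lilrb4a, Pilra and Pilrb1 span the widest ranges.

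The 3 activating Fc gamma receptors did not share one pattern. Fcgr1, the high-affinity receptor for IgG, measured -2.03 and -2.09 in pro-B(+) cells and -4.06 and -3.97 in pro-B(-) cells. It measured -5.55 and -5.47 in pro-B(-)/LMO2 cells, and -6.07 and -6.61 in pro-B(-)/Mock cells, where neither array was well above background. The pro-B(+) level was 3.88-fold that of pro-B(-) cells (log2 1.96, SE 0.18), and the pro-B(-)/LMO2 level was at least 1.42-fold that of pro-B(-)/Mock cells. Fcgr1 is the one member that was lower in pro-B(-)/LMO2 than in the pro-B(-) parent on every array of both groups while being at least 2-fold higher in the pro-B(+) line.

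Fcgr4, a receptor of myeloid cells for IgG2 subclasses, was likewise highest in pro-B(+) cells, at -2.81 and -2.77. It measured -4.94 and -5.05 in pro-B(-)/LMO2 cells. The values were -5.84 and -5.70 in pro-B(-) and -6.53 and -5.79 in pro-B(-)/Mock cells, and 1 of 2 arrays of each of these groups was well above background. These last 2 groups overlapped, the only neighbours in the order of any of the 9 genes that did. Fcgr4 was 7.88-fold higher in the pro-B(+) line (log2 2.98, SE 0.24) and 2.24-fold higher in pro-B(-)/LMO2 than in pro-B(-)/Mock cells (1.16, SE 0.24).

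Fcgr3, the low-affinity activating receptor, showed the opposite order between the parental lines. It measured 0.91 and 0.96 in pro-B(+) cells against 1.96 and 1.87 in pro-B(-) cells, a level 1.97-fold lower in the pro-B(+) line (log2 -0.98, SE 0.051). The 2 transductants lay close to the pro-B(-) parent, at 1.99 and 1.98 with the empty vector and 2.08 and 2.11 with Lmo2. The difference between the transductants was 0.11 (SE 0.051), and it was -0.10 when arrays were scaled on their medians, so its direction depends on the scaling.

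Fcgr2b, the inhibitory Fc gamma receptor with an ITIM of its own, measured -0.28 and -0.24 in pro-B(+), -0.99 and -1.04 in pro-B(-), -1.17 and -1.23 in pro-B(-)/Mock and 0.03 and 0.09 in pro-B(-)/LMO2 cells. The order of the groups was the same as for Tyrobp. The level was 1.69-fold higher in the pro-B(+) line (log2 0.76, SE 0.051) and 2.40-fold higher with Lmo2 than in pro-B(-)/Mock cells (1.26, SE 0.051). Fcgr2b, Fcgr3, Fcgr4 and Fcer1g lie on chromosome 1, where Fcgr3 and Fcgr2b differed in direction between the parental lines.

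The sequences before the start of Fcgr1 and Fcgr4 are shown because these receptors share the pattern of a level highest in pro-B(+) cells. They are the 250 bases upstream of the start in the RefSeq table of build GRCm38.p6, in the direction of the gene: Fcgr1 at chr3:96293970-96294219 on the minus strand and Fcgr4 at chr1:171018676-171018925 on the plus strand. Capitals mark a match to GAGGAA on either strand, the core bound by PU.1, an ETS factor of myeloid and B-lineage cells.
Fcgr1: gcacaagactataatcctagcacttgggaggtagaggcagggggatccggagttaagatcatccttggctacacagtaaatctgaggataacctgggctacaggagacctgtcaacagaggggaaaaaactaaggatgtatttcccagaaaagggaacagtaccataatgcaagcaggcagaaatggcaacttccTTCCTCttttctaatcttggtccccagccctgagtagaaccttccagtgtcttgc
Fcgr4: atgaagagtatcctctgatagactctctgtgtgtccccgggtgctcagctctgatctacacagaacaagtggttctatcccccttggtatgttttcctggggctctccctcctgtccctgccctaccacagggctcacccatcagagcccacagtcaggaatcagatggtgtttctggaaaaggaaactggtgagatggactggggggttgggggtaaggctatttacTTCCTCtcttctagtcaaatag

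The match in Fcgr1 began 55 bases before the start and that in Fcgr4 began 22 bases before it, both on the opposite strand of the gene. Of the 7 member genes with a promoter in the table, 4 held GAGGAA (Fcgr1, Fcgr3, Fcgr4 and Pilra), against 23.4% of all 32544 promoters of this length. Fcgr3, whose level was lower in pro-B(+) cells, held it as well. A match is a run of letters and no measured site.

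The paired receptors had the widest ranges of the 9 genes. Lilrb4a, an inhibitory receptor with ITIMs, was well above background on all 8 arrays at its brighter probe. It measured 3.94 and 3.95 in pro-B(+) cells and 0.64 and 0.68 in pro-B(-)/LMO2 cells. The values were -2.60 and -2.64 in pro-B(-) cells and -4.63 and -4.77 in pro-B(-)/Mock cells, so the 4 groups were spread over a 400-fold range without overlap.

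Lilrb4a was 94.7-fold higher in the pro-B(+) line (log2 6.56, SE 0.061) and 41.0-fold higher with Lmo2 than in pro-B(-)/Mock cells (5.36, SE 0.061). The pro-B(-)/LMO2 level was 3.28 above the pro-B(-) parent and 3.28 below pro-B(+) cells on the log2 scale, midway between the parental lines. The second probe gave the same order of groups, with values of 0.20 and 0.27 in pro-B(+) and -3.88 and -3.72 in pro-B(-)/LMO2 cells. There the pro-B(-) values were -5.64 and -5.75, with 1 of 2 arrays well above background, and the pro-B(-)/Mock values of -6.40 and -7.91 were both below it. At that probe the difference between the transductants was at least 4.92-fold, a smaller bound than the 41.0-fold difference measured at the brighter probe. Lilr4b, a near-identical neighbour on chromosome 10, may share signal with these probes. At its own probe Lilr4b was 51.8-fold higher in the pro-B(+) line (log2 5.69, SE 0.25, limma adjusted p = 6.8e-05) and at least 7.78-fold higher with Lmo2 than in pro-B(-)/Mock cells (adjusted p = 2.0e-04).

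Pilra encodes the inhibitory PILR-alpha, which carries an ITIM. At its brightest probe it measured -0.36 on both pro-B(+) arrays and -0.37 and -0.39 on the pro-B(-)/LMO2 arrays. The pro-B(-) values were -4.57 and -4.70, and the pro-B(-)/Mock values of -6.90 and -7.60 were not well above background. Pro-B(+) and pro-B(-)/LMO2 cells thus differed by 0.02 on the log2 scale, on different slides, while both were over 4 log2 units above the pro-B(-) parent.

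Pilra was 19.4-fold higher in the pro-B(+) line (log2 4.28, SE 0.23) and at least 52.7-fold higher with Lmo2 than in pro-B(-)/Mock cells. The other 2 probes of the gene were below background in pro-B(-) and in pro-B(-)/Mock cells. The second measured -1.10 and -1.02 in pro-B(+) and -0.53 and -0.54 in pro-B(-)/LMO2 cells, and the third -2.49 and -2.39 in pro-B(+) and -1.19 and -1.27 in pro-B(-)/LMO2 cells. At both of these probes pro-B(-)/LMO2 cells had the highest level, by 0.53 and 1.21 on the log2 scale, so the probes disagree on whether the levels of these groups were alike. The bounds at these probes were 26.8-fold and 10.3-fold between the parental lines, and 47.3-fold and 29.2-fold between the transductants.

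Pilrb1 encodes the activating PILR-beta, which signals through DAP12. It measured -4.06 and -4.23 in pro-B(+) cells and -0.60 and -0.58 in pro-B(-)/LMO2 cells. No array of pro-B(-) cells had it well above background, at -7.85 and -7.56, and none of pro-B(-)/Mock cells did, at -8.30 and -7.91. Pilrb1 was the one member with its highest level in pro-B(-)/LMO2 cells by a wide margin, 3.55 log2 units above pro-B(+) cells.

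The difference in Pilrb1 was at least 3.16-fold between the parental lines and at least 45.5-fold between the transductants. Between pro-B(-)/Mock cells and their parent neither group was above background, and no fold is given. Pilrb2, a further activating member next to them on chromosome 5 and no member of the set, was 3.19-fold higher in the pro-B(+) line, with 1 of 2 pro-B(-) arrays well above background (log2 1.67, SE 0.30, limma adjusted p = 0.0102). It was at least 6.67-fold higher with Lmo2 than in pro-B(-)/Mock cells (adjusted p = 4.3e-04). The PILR genes are near-identical in part, and how their probes share signal was not tested.

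The sequences before the start of Pilra and Pilrb1 are shown because both genes were below background with the empty vector and at -0.37 to -0.60 with Lmo2. They are the 250 upstream bases on the minus strand of build GRCm38.p6 in the RefSeq table, Pilra at chr5:137836279-137836528 and Pilrb1 at chr5:137858050-137858299. Capitals mark AGATAA, a motif of GATA factors, which join LMO2 in complexes that also hold LDB1.
Pilra: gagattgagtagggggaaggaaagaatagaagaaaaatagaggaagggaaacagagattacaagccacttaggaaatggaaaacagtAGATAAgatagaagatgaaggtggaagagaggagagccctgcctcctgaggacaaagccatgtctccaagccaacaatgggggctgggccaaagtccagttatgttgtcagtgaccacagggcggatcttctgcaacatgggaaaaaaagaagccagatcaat
Pilrb1: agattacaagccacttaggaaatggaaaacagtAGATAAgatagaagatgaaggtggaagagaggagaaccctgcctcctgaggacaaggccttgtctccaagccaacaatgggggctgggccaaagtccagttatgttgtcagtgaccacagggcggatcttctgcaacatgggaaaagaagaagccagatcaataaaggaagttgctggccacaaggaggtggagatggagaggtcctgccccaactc

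The motif began 163 bases before the start of Pilra and 217 bases before that of Pilrb1, in a stretch the genes have in common: 196 bases of both windows aligned, of which 192 (98.0%) were identical. Because of this shared stretch the genes do not count as separate matches. AGATAA was in 9.97% of all promoters of this length and in no other member with a promoter in the table. TTGCNNAA, a motif of C/EBP factors, was in Pilra, Pilrb1 and Fcgr3 and in 9.58% of all promoters. The E-box CANNTG, bound by partners of LMO2, was in neither PILR window and in 66.2% of all promoters. The motifs were searched on both strands, and no match to one overlapped a match to another in the windows of the members.

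**Figure D2:**
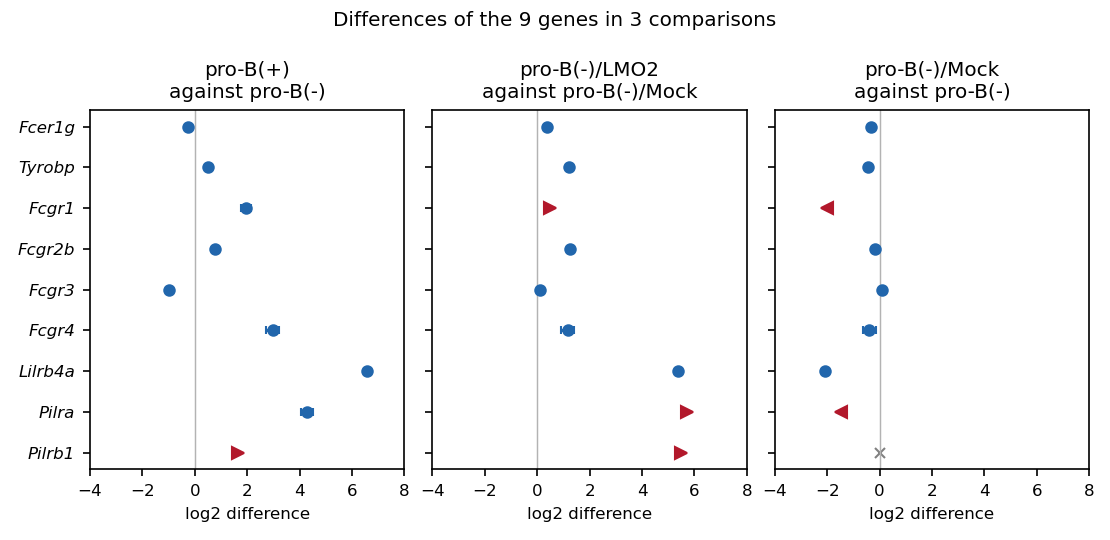
Log2 difference (horizontal axis) of the 9 genes (vertical axis) in 3 comparisons, at the brightest probe. Circles are differences with SEs, triangles are the bounds of differences where one group was below background, pointing to the side on which the value lies, and the cross marks Pilrb1, below background in both groups; Lilrb4a, Pilra and Pilrb1 have large differences in both of the first comparisons, while Fcgr3 lies below 0 in the first.

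Between the parental lines, 5 of the 9 genes were 2-fold or more higher in pro-B(+) cells (Fcgr1, Fcgr4, Lilrb4a, Pilra and Pilrb1), where 10.9% of all genes tested were. None was 2-fold or more lower, against 2.36% of all genes. The groups did not overlap for any of the 9 genes, which held for 79.6% of all genes. The median log2 difference of the 9 genes was 1.96, or 1.66 with Pilrb1 at its bound, beside -0.01 for all 13219 genes tested. Under normexp background correction with an offset of 50, which compresses low signals, the log2 differences were smaller for Pilra (2.75), Fcgr4 (1.24), Fcgr1 (1.17) and Pilrb1 (0.65).

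Between the transductants, 6 of the 9 genes were 2-fold or more higher with Lmo2 (Tyrobp, Fcgr2b, Fcgr4, Lilrb4a, Pilra and Pilrb1), where 8.43% of all genes were. None was 2-fold or more lower, against 3.01% of all genes. Here too the groups overlapped for none of the 9 genes, which held for 86.0% of all genes. The median was 1.23, with or without the bounds, beside -0.03 for all 12927 genes tested. Under normexp they were 3.64 for Lilrb4a, 3.23 for Pilra, 2.96 for Pilrb1 and 0.31 for Fcgr4. As the genes were chosen with these levels known, nothing is read from the counts.

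The empty vector went with lower levels of several members. Of the 7 genes tested between pro-B(-)/Mock cells and their parent, 3 were 2-fold or more lower in pro-B(-)/Mock cells, against 4.47% of all genes, and none was 2-fold or more higher, against 5.49%. These groups did not overlap for any of the 7 genes, which held for 83.4% of all genes. Lilrb4a was 4.22-fold lower (log2 -2.08, SE 0.061), Fcgr1 at least 4.0-fold lower and Pilra at least 2.76-fold lower. None of these 3 stayed past 2-fold under normexp, where the log2 differences were -0.88 for Lilrb4a, -0.53 for Fcgr1 and -0.46 for Pilra, and only Lilrb4a was left to compare when a probe had to be well above background on all arrays. Tyrobp differed by -0.44 (SE 0.045), Fcer1g by -0.32 (SE 0.041), Fcgr2b by -0.18 (SE 0.051) and Fcgr3 by 0.07 (SE 0.051), the last turning to -0.02 under normexp. This comparison shares the pro-B(-) arrays with the first and the pro-B(-)/Mock arrays with the second, so the values of pro-B(-)/LMO2 cells were also set beside the parent, across the slides. Against pro-B(-) cells, the pro-B(-)/LMO2 level was 4.26 log2 units higher for Pilra and 0.77 higher for Fcgr4, and it was 1.50 lower for Fcgr1.

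The parental difference and the difference with the vector were subtracted gene by gene. The parental difference minus the vector difference lay above 0 for Fcgr4 (log2 1.81, SE 0.34), Lilrb4a (1.21, SE 0.086) and Fcgr1 (1.13, SE 0.25). It lay below 0 for Pilrb1 (-3.95, SE 0.24), Pilra (-2.59, SE 0.32), Fcgr3 (-1.09, SE 0.073), Tyrobp (-0.71, SE 0.064), Fcer1g (-0.62, SE 0.058) and Fcgr2b (-0.50, SE 0.073). For Pilrb1, Pilra and Fcgr1 these fitted values rest on signals below background in at least 1 group and are no bounds. That of Fcgr4 rests in part on such signals, as 1 of 2 arrays was well above background in pro-B(-) and in pro-B(-)/Mock cells.

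Likeness between profiles was measured as the root mean square distance between log2 values over the 8 arrays, each gene centred on its own mean. The closest members were Tyrobp and Fcgr2b, at 0.12. Fcer1g was nearest to Tyrobp (0.41) and to Fcgr3 (0.42), whereas the paired receptors were over 1 log2 unit from any other member.

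Among 13724 genes well above background in at least 1 group, the nearest to Tyrobp were Ptpre (0.062), H2-K2 (0.072) and G0s2 (0.089). Those nearest to Fcgr2b were Lyst (0.081), Cd80 (0.085) and Sp140 (0.090), and those nearest to Fcer1g were Smim19 (0.015), Stat5b (0.030) and Tmub2 (0.032). Small distances are easily reached by genes that vary little, as Fcer1g does. Fcgr3 was nearest to 0610040B10Rik (0.061), Slc43a1 (0.076) and Zdhhc14 (0.081).

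For genes with wide ranges the nearest profiles were further off. Many of these profiles include signals below background, which have no order, so their distances and ranks are less certain: Pilrb1 and each of its 3 neighbours were well above background on 4 of 8 arrays, Pilra, Fcgr1 and Fcgr4 on 6, Lyz2, Ebi3 and Bcl2a1c on 4, and Klra9 on 2. The genes nearest to Lilrb4a were Lyz1 (0.22) and Lyz2 (0.33), which encode lysozymes of myeloid cells, and Ebi3 (0.50), a cytokine subunit. Pilra was nearest to Bcl2a1c (0.69), Bcl11a (0.70) and Ccl4 (0.76), and Pilrb1 to Skint3 (0.46), Togaram2 (0.52) and Xcl1 (0.58). The Fc receptor Fcgr4 was nearest to Klra9 (0.20), Cd300c2 (0.21) and Stat4 (0.22), and Fcgr1 to Eva1b (0.23), B3galt4 (0.25) and Trf (0.29).

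The surrounding pathway was examined in 5 lists with 129 genes on the array, all outside the 9 genes. These were tested with limma over all probes, at an adjusted p under 0.05. A gene below background in either group was tested only through the other, which favours a call in that direction. In the parental comparison 59 of 111 tested genes were higher in pro-B(+) cells and 15 lower, where limma called 22.7% of all genes higher and 21.7% lower. With Lmo2, 61 of 97 were higher and 11 lower, beside 28.6% and 34.4% of all genes. The same shares of all genes apply to the counts of each list below. The balance depended on the scaling: with arrays scaled on their medians, 47 were called higher and 36 lower between the parental lines, and 44 higher and 21 lower with Lmo2.

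Of the other paired and myeloid receptors, 26 of 41 tested were higher in pro-B(+) cells and 2 lower, with a median log2 difference of 1.59, or 1.44 with genes at their bounds, beside -0.01 for all genes. The 4 genes with the highest fitted differences were below background in pro-B(-) cells, so that only a bound is known and their order is not. Clec4n, which encodes Dectin-2 and signals through the Fc receptor gamma chain, was at least 237-fold higher (limma adjusted p = 3.5e-06). Clec4a1 was at least 64.3-fold, Clec4b1 at least 20.3-fold and Btla, an inhibitory receptor of lymphocytes, at least 14.2-fold higher. Of the genes measured in both lines, Lilr4b was 51.8-fold and Trem2, a receptor that signals through DAP12, 40.2-fold higher, the latter named after its value was seen. The 2 lower genes were the inhibitory receptors Pdcd1 (log2 -1.95, SE 0.041, limma adjusted p = 8.5e-06) and Pecam1 (-1.13, SE 0.069, adjusted p = 2.1e-04). With arrays scaled on their medians, the calls in this list numbered 25 higher and 11 lower.

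With Lmo2, 21 of 34 tested genes of this list were higher and 3 lower, with a median of 0.54 beside -0.03 for all genes. Median scaling gave 17 higher and 6 lower. With only genes well above background on all arrays compared, 18 of 30 tested were higher and 3 lower. Cd33, a sialic acid receptor, was 11.0-fold higher (log2 3.46, SE 0.11, limma adjusted p = 2.7e-05), Clec4n at least 8.52-fold higher and Siglecf, another sialic acid receptor named after its value was seen, 8.89-fold higher. Sirpa, the inhibitory receptor for CD47, was 2.26-fold lower (log2 -1.17, SE 0.058, limma adjusted p = 1.1e-04). Clec4d and Pecam1 were lower by less than 1.5-fold, and the call of Pecam1 was lost under 6 of 17 other settings. Of 34 genes tested in both comparisons, 20 had a positive difference in both. The share of all genes with a positive difference in both was not computed, so nothing is read from this count.

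**Figure D3:**
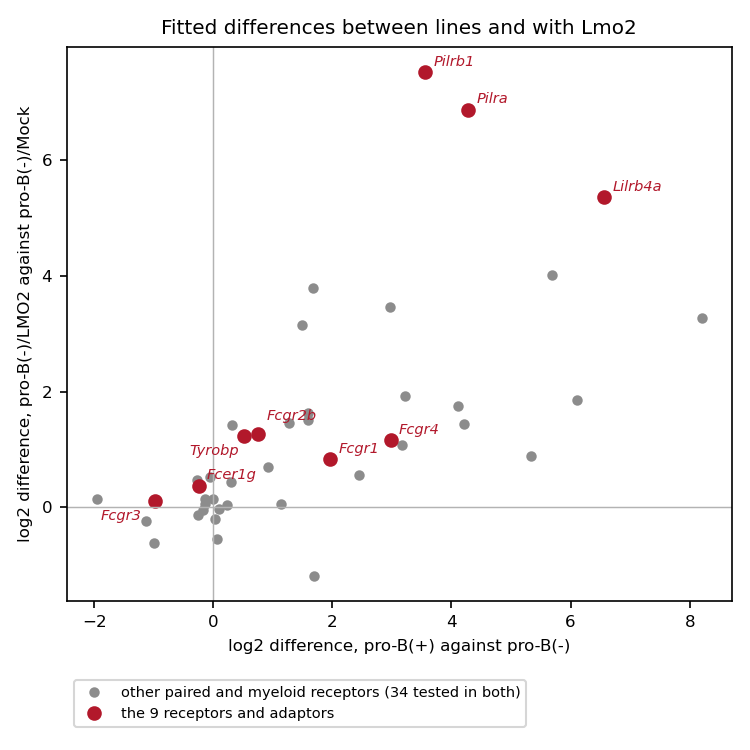
Fitted log2 difference between pro-B(+) and pro-B(-) cells (horizontal axis) against that between pro-B(-)/LMO2 and pro-B(-)/Mock cells (vertical axis); grey points are the 34 other paired and myeloid receptors tested in both comparisons and red points the 9 genes. Values are as fitted, also where a group was below background; Pilrb1 and Pilra have the highest points on the vertical axis.

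Genes of the LILR family on chromosome 7 were examined beside Lilrb4a, chosen for their kinship after their values were seen. Pirb, an inhibitory receptor, was 9.27-fold higher in the pro-B(+) line (log2 3.21, SE 0.044, limma adjusted p = 4.2e-06). With Lmo2 it was 3.78-fold higher (1.92, SE 0.044, adjusted p = 1.3e-05). The activating Lilra6 was 17.3-fold and 3.35-fold higher, and Pira2 18.6-fold and 2.71-fold higher. Pirb, Lilra6 and Pira2 were measured on every array, and these near-identical genes may share signal. Not all of the family was detected: Lilra5, also among the paired and myeloid receptors, gave only background signal in every group.

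Of the other Fc receptors, 3 of 11 tested were higher in pro-B(+) cells and 1 lower, beside 22.7% and 21.7% of all genes. Fcgrt, the neonatal Fc receptor that recycles IgG, was 8.51-fold higher (log2 3.09, SE 0.081, limma adjusted p = 1.5e-05). Fcmr, the IgM receptor, was at least 2.23-fold higher, a call lost under normexp (log2 0.14) and without pro-B(+) replicate 2. Fcrla was 2.24-fold higher, a call lost under 9 of 17 other settings. Pigr was 1.36-fold lower. With Lmo2, 2 of 7 were higher and 1 lower, beside 28.6% and 34.4% of all genes. The shares called higher were thus near those of all genes in both comparisons. Fcgrt was 1.49-fold and Trim21 1.31-fold higher with Lmo2, the latter not called under median scaling. Fcrl1, a receptor of B cells, was 1.90-fold lower. Ms4a2, the beta chain of the IgE receptor, was not above background in any group.

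Of the ITAM adaptors, kinases and signalling adaptors, 21 of 40 tested were higher in pro-B(+) cells and 7 lower, with a median of 0.25. Cd79b, an ITAM chain of the B-cell receptor, was at least 34.9-fold higher, Cd3g, a chain of the T-cell receptor complex, at least 8.47-fold higher, and the adaptor Blnk 28.9-fold higher (log2 4.85, SE 0.11, limma adjusted p = 1.0e-05). The 4 largest lower differences, in Pik3ap1, Pik3r1, Zap70 and Vav2, were between -0.30 and -0.37, and the call of Vav2 was lost under 13 of 17 other settings. The calls numbered 14 higher and 15 lower under median scaling, and 18 to 20 higher and 3 to 6 lower with each array left out in turn, with 3 lower without pro-B(+) replicate 1 or pro-B(-) replicate 2 and 4 without the other array of either group.

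With Lmo2, 25 of 38 genes of this list were higher and 6 lower, with a median of 0.54. There were 19 higher and 9 lower under median scaling, and 2 lower without pro-B(-)/Mock replicate 1. The adaptor Lcp2 was at least 6.84-fold, Cd3g at least 4.59-fold and Blnk 4.31-fold higher. Plcg1 was 2.94-fold lower with Lmo2. Lat and Btk were lower by less than 1.2-fold. Syk and Hcst were looked up for their role, after their values were seen. Syk, the kinase that binds phosphorylated ITAMs, differed by 0.00 between the parental lines (SE 0.054, limma adjusted p = 0.98) and was 1.47-fold higher with Lmo2 (0.56, SE 0.054, adjusted p = 7.7e-04). Hcst, which encodes the adaptor DAP10 and lies next to Tyrobp, was 2.51-fold and 2.30-fold higher.

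Next came a list of phosphatases and negative regulators, of which only some, such as SHP-1 and SHIP-1, are recruited by ITIMs. Of 12 tested, 4 were higher in pro-B(+) cells and 4 lower, beside 22.7% and 21.7% of all genes. With Lmo2, 8 were higher and 1 lower, beside 28.6% and 34.4%. Median scaling gave 2 higher and 6 lower between the parental lines, and 6 higher and 4 lower between the transductants. Of the parental calls, Ptprj was not called under 7 of 17 other settings and turned to -0.02 under median scaling, Cblb and Csk were not called under 4 each, and Inpp5d was not called without either pro-B(+) replicate or without pro-B(-) replicate 2. The parental count of higher genes fell to 2 without pro-B(+) replicate 2 or pro-B(-) replicate 1, and that of lower genes to 2 without either pro-B(+) replicate or pro-B(-) replicate 2. The count of those higher with Lmo2 fell to 5 without pro-B(-)/LMO2 replicate 1. Ptpn6, which encodes SHP-1, was 1.45-fold higher in the pro-B(+) line (log2 0.53, SE 0.048, limma adjusted p = 8.7e-04). With Lmo2 it was 1.50-fold higher. Inpp5d, which encodes SHIP-1, was 1.16-fold lower in the pro-B(+) line. Dok3 was 2.17-fold lower in the pro-B(+) line and 1.63-fold lower with Lmo2, and Ptpn11, which encodes SHP-2, was 1.48-fold lower in the pro-B(+) line. The difference between the 2 effects was called in 6 of the 12, in each of which the parental difference minus the vector difference lay below 0. Of all genes, 22.2% were called lower and 29.9% higher for this difference.

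Of the reported ligands of PILR and LILRB4, 5 of 7 tested were higher in pro-B(+) cells and 1 lower, and 5 of 6 were higher with Lmo2. The second count was 1 under median scaling, where Itgb3 was called and Npdc1, Fn1 and Apoe were not, and 3 without pro-B(-)/Mock replicate 2 or pro-B(-)/LMO2 replicate 1. The first was 3 higher and 2 lower under median scaling. Pianp, a ligand of PILR-alpha, was at least 2.23-fold, Npdc1 2.55-fold and Fn1, which encodes fibronectin, 2.30-fold higher in the pro-B(+) line, while Itgav was 2.51-fold lower. Itgb3 was 4.37-fold higher with Lmo2 (log2 2.13, SE 0.046, limma adjusted p = 1.2e-05). The list was also higher with the empty vector than in the parent, in 5 of 6 genes with none lower, where 26.2% of all genes were called higher and 25.6% lower. Fn1, a matrix gene, was among them, and in the same comparison 8 of 10 stromal markers tested were called higher and none lower. Their part in the result was not tested. Across all 5 lists, 31 of 95 genes tested were higher with the empty vector and 34 lower, among them Lilr4b (at least 2.20-fold lower).

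The difference between the parental effect and the vector effect was called higher in 36 and lower in 32 of 112 genes of the 5 lists, beside 29.9% and 22.2% of all genes. In the paired and myeloid receptors it was higher in 17 and lower in 8 of 41.

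Markers of the cell types that usually carry these receptors differed between the same groups. Marker calls are by limma at an adjusted p under 0.05, as for the lists above. Here too, a marker below background in either group was tested only through the other, which favours a call in that direction. Over all genes, 22.7% were called higher and 21.7% lower between the parental lines, and 28.6% and 34.4% with Lmo2. Of the macrophage and monocyte markers, 15 of 18 tested were higher and 1 lower in the pro-B(+) line, and 8 of 13 were higher and 3 lower with Lmo2. Of the 19 with a probe, 8 were below background in pro-B(-) cells and 7 in pro-B(-)/Mock cells. Their summed normalized signal, on the linear scale, was 55.2 to 55.5 in pro-B(+), 9.81 to 10.3 in pro-B(-), 12.1 to 12.5 in pro-B(-)/Mock and 17.0 to 17.9 in pro-B(-)/LMO2 cells. C1qa, C1qc, Mertk, Msr1, Cybb and Cd163 were below background in the latter 3 groups, and in pro-B(+) cells Cd163 was.

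Of the neutrophil markers, 9 of 10 tested were higher and none lower in pro-B(+) cells, and 3 of 5 were higher with Lmo2. Of the 10, 5 (S100a8, S100a9, Ltf, Ngp and Retnlg) were below background in pro-B(-) cells and were tested only through pro-B(+) cells. Their sum was 33.0 to 33.7 in pro-B(+), 1.84 to 1.86 in pro-B(-), 1.08 to 1.15 in pro-B(-)/Mock and 16.0 to 16.7 in pro-B(-)/LMO2 cells. Most of the sum with Lmo2 (95.9% to 96.0%) was Mpo, which encodes myeloperoxidase, at 15.3 to 16.0 there and 15.9 to 16.2 in pro-B(+) cells. The other neutrophil markers summed to 17.0 to 17.4 in pro-B(+) cells and 0.661 to 0.667 with Lmo2. S100a8, S100a9, Ltf and Retnlg were below background in the latter 3 groups. NK cell markers had their highest sum with Lmo2, at 16.4 to 16.9. It was 6.67 to 6.83 in pro-B(+), 2.13 to 2.17 in pro-B(-) and 3.34 to 3.46 in pro-B(-)/Mock cells. Nkg7 made up 60.5% to 60.8% of the sum with Lmo2. The other NK cell markers summed to 6.47 to 6.61 there, 3.04 to 3.11 in pro-B(+), 0.749 to 0.790 in pro-B(-) and 1.64 to 1.75 in pro-B(-)/Mock cells. Of the 7 NK cell markers tested, 6 were higher and 1 lower in either comparison, and Ncr1, which defines NK cells, was below background in all groups.

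Of the mast cell and basophil markers 3 of 5 tested were higher in pro-B(+) cells and 1 lower, and 4 of 5 were higher with Lmo2, with sums of 0.557 to 1.07 over all arrays. Tpsb2 made up 59.0% to 88.9% of these sums. In pro-B(-) and in pro-B(-)/Mock cells, only 1 of the 10 with a probe was above background on both arrays. Ms4a2 and Gata2 were below background in every group. Of the dendritic cell markers 3 of 6 tested were higher in pro-B(+) cells, and 2 of 5 higher and 1 lower with Lmo2, with sums of 41.5 to 55.8, and Xcr1 and Clec9a were below background in all groups. Siglech made up 48.8% to 69.1% of the dendritic cell sums. The stromal markers summed to 20.1 to 20.6 in pro-B(+), 9.89 to 10.2 in pro-B(-), 16.9 to 17.1 in pro-B(-)/Mock and 19.2 to 20.2 in pro-B(-)/LMO2 cells. Of these, 7 of 9 tested were higher in pro-B(+) cells and none lower, and 5 of 10 were higher and 2 lower with Lmo2. Cxcl12 made up 32.2% to 63.9% of the stromal sums. Dcn and Lum were below background in all groups.

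The label of a B cell line was set against B-lineage markers. Their sums were 9.43 to 12.7 over all arrays and 8 or 9 of 11 genes were above background in each group. In pro-B(+) cells 2 of 10 tested were higher and 5 lower than in pro-B(-) cells, beside 22.7% and 21.7% of all genes. With Lmo2, 2 of 9 were higher and 5 lower, beside 28.6% and 34.4%. The part of other cells in the levels of the 9 genes was not tested.

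**Figure D4:**
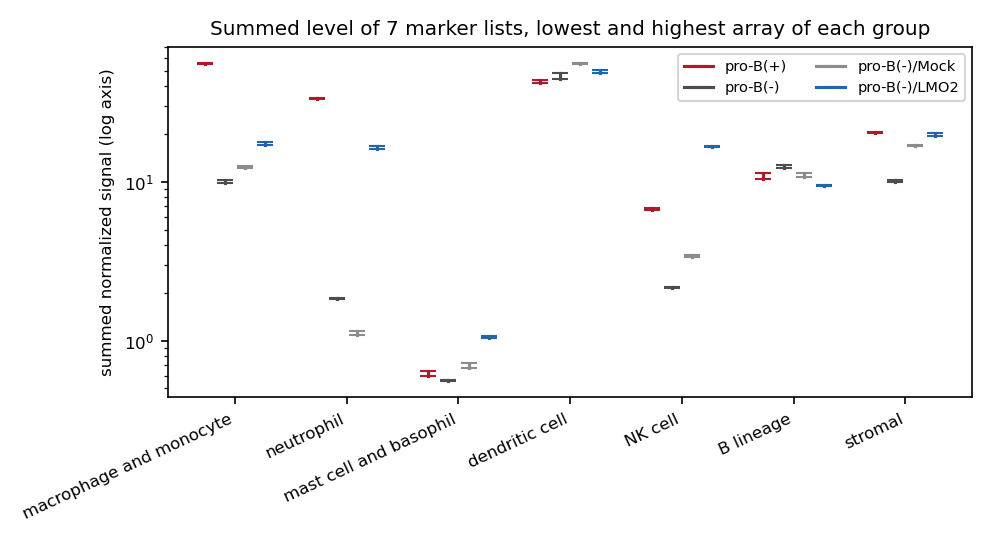
Summed normalized signal of the genes in 7 marker lists (horizontal axis), on a log axis (vertical axis), with a bar from the lower to the higher of 2 arrays in each group. The macrophage and neutrophil sums are highest in pro-B(+) cells, and the NK cell sum is highest in pro-B(-)/LMO2 cells. A single bright probe can make up most of a sum.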

How the data were processed

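Total RNA was labelled with Cy3 and hybridised to one-colour Agilent whole mouse genome arrays, 2 per group. Groups and replicate numbers came from the sample titles. The deposited scanner files came from Agilent Feature Extraction 11.5.1.1, per the file headers, and their processed intensity was already background subtracted. The authors also deposited a log2 matrix after 75th percentile normalization in GeneSpring. It differed from log2 of the processed intensity minus each array's 75th percentile by one constant per array (-0.0091 to -0.0036), to within 0.01, in 99.6% to 99.7% of probes, and served as an alternative. Background flags were deposited with each spot.

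Control spots and outlier spots were left out, the spots of a probe were averaged, and log2 of the intensity minus the array's 75th percentile was used. The 75th percentile was 604 to 949 in intensity units. Probes were named through RefSeq accessions (GRCm38.p6 table), which named 67.4% of them. The array design was annotated on mm9, so no probe coordinates are given. The brightest probe stood for a gene. All 8 arrays entered one limma fit (limma 3.58.1, R 4.3.3) with 4 group means, checked on simulated data. A probe was tested where both arrays of 1 or more of the groups compared had it well above background, with Benjamini-Hochberg adjustment. SEs come from this fit. Where a group was below background on both arrays, the fold is "at least" the brighter mean over the dim group's floor, which is, per array, the probe's own signal or the lowest signal well above background, whichever is higher. The number of arrays limits the precision: an exact permutation test of 2 against 2 cannot go below p = 0.333 (two-sided).

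The members and the gene lists were chosen with earlier results of these data known. Named from each list were up to 4 genes called higher and up to 4 called lower with the largest difference, and the 3 nearest profiles of each member. Some genes that this rule names are not reported here. The alternatives were median scaling, quantile normalization, normexp, no filter and a strict filter on dim probes, the deposited matrix, the mean of all probes of a gene, an intensity trend, a replicate block and leaving out each array.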

Additional observations from a re-analysis of the deposited data

How the results depend on the processing

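Counts below are of the 9 genes past 2-fold and of related genes called by limma, each against the setting used in the report. With only probes well above background on all arrays compared, which tests fewer genes, 3 of the 9 genes were 2-fold or more higher in pro-B(+) cells, 3 were higher with Lmo2 and 1 was lower with the empty vector, and the difference between the effects was called higher in 22 related genes. With arrays scaled on their medians, which moved the median difference of all probes from -0.04 to -0.33 between the parental lines and from -0.04 to -0.25 between the transductants, 1 of the 9 genes (Fcgr3) was 2-fold or more lower in pro-B(+) cells, 36 related genes were called lower in pro-B(+) cells and 21 lower with Lmo2, and Fcgr3 turned to -0.10 with Lmo2. Normexp background correction, planned on mean signals that the files used here do not hold, was run on median signals, a form chosen after seeing the data. It left 0 of the 9 genes 2-fold or more lower with the empty vector and turned Fcgr3 to -0.020 there. Under normexp Pilrb1 was also no longer 2-fold or more higher in pro-B(+) cells, and Fcgr4 no longer so with Lmo2. Leaving out each array in turn, 0 to 1 of the 9 genes were 2-fold or more lower in pro-B(+) cells, the 1 being Fcgr3 without pro-B(+) replicate 2 or without pro-B(-) replicate 2. Related genes called lower numbered 9 to 14 in pro-B(+) cells, with 9 without pro-B(+) replicate 1 or pro-B(-) replicate 2, and 6 to 12 with Lmo2, with 6 without pro-B(-)/Mock replicate 1. The cause of these changes was not tested. The replicate numbers do not pair the arrays: differences between replicates correlated between groups at -0.03 to 0.05. With the replicate number as a block, the counts of the 9 genes stayed at 5, 6 and 3, the related genes called were 58 higher and 13 lower between the parental lines and 57 higher and 10 lower with Lmo2, and the difference between the effects was called in 35 higher and 29 lower. Signal over background limits Pilra, Pilrb1, Fcgr1 and Fcgr4, whose lower groups lie at or near background.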
